A study of Mus musculus with 8 samples.

Results

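Cyclic GMP is a second messenger made from GTP by guanylyl cyclases. Soluble guanylyl cyclase, an alpha-beta dimer, answers to nitric oxide, while the natriuretic peptide receptors are cyclases in the plasma membrane that answer to peptides. The messenger acts through cyclic GMP-dependent protein kinases and gated channels, and phosphodiesterases break it down. In peripheral neurons C-type natriuretic peptide, its receptor and kinase I are known for their part in the branching of sensory axons, and in blood vessels the pathway relaxes smooth muscle.

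The account covers 10 genes of this pathway: the ligand gene Nppc, the receptor genes Npr1, Npr2 and Npr3, the soluble cyclase subunit genes Gucy1a3 and Gucy1b3, the kinase genes Prkg1 and Prkg2, and the phosphodiesterase genes Pde2a and Pde5a. All 10 were found, each on 1 row, among 23827 rows of a table of read counts, and all 10 were among the 14592 genes tested. The set was chosen from the fall of Prkg2 in knockout ganglia, so the values of Prkg2 in that comparison are a description and carry no test. The other 9 were picked by symbol and role, with earlier results of these data known. All values come from the same comparison.

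The tissue was the superior cervical ganglion of C57Bl6/n mice on postnatal day 1, taken as the pair from each animal. It holds noradrenergic sympathetic neurons with glia, vessels and connective tissue. The 4 control animals were KIF1Bb fl/fl and DBHcre -/-, and the 4 conditional knockout (cKO) animals were KIF1Bb fl/fl and DBHcre +/-. Both groups thus carry the floxed alleles, and Cre recombinase, driven by the promoter of the dopamine beta-hydroxylase gene Dbh, is present in the cKO group alone, so an effect of Cre itself and of the deletion cannot be told apart. Cells that never express Dbh keep Kif1b, the motor protein gene that was deleted.

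Total counts lay between 16214912 and 18114418 per library. Kif1b had 1224 ± 222 CPM (SD, n = 4) in control ganglia and 259.7 ± 52.7 CPM after deletion (SD, n = 4), with no overlap of the groups, where CPM, the usual depth-scaled count, was computed on TMM-scaled library sizes. Control 1 and cKO 1 held the highest summed muscle and cartilage markers, at 126 and 256 CPM against 53.5 to 77.7 CPM elsewhere, and cKO 4 the highest summed sensory neuron markers, at 279 CPM against 109 to 164 CPM. The noradrenergic genes Th and Dbh averaged 1344 and 2421 CPM in control ganglia.

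In cKO ganglia the genes divided. Prkg2 stood at 34.8% of its control mean, and the soluble cyclase subunits Gucy1a3 and Gucy1b3 stood at 70.6% and 65.6% of theirs. Prkg1, Npr1, Npr3 and Pde5a had means between 137% and 172% of control and lay higher in each cKO library than in each control library, but none of them passed the test. At an adjusted p below 0.05 in edgeR's quasi-likelihood test over all genes, 2 of the 9 genes beside Prkg2 were lower (Gucy1a3 and Gucy1b3), 0 were higher and 7 did not pass. Over all tested genes 2.72% passed, 1.12% lower and 1.6% higher. At an unadjusted p below 0.05, 5 of the 9 were higher and 3 lower, against 9.42% and 7.42% of all genes. The Wald test of DESeq2 passed 3 of them as higher (Prkg1, Npr3 and Pde5a) and 2 as lower, against 3.42% and 2.76% of all genes with an adjusted p in DESeq2. Groups did not overlap in 6 of the 9 (4 higher, 2 lower) and in 11% of all genes. The median log2 fold change of the 9 genes was 0.46, against -0.00062 over all genes tested. As the 9 were chosen with earlier results of these data known, these counts and this median are a description and no independent test.

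**Figure D1:**
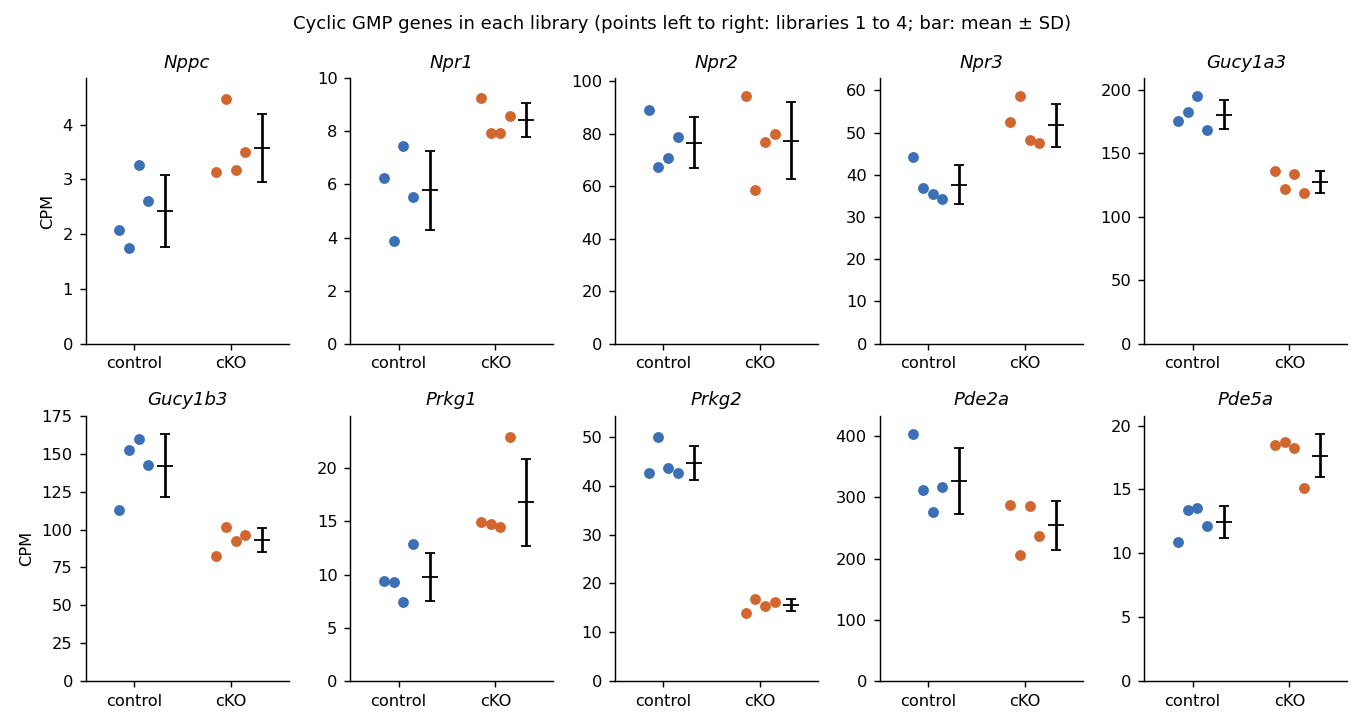
CPM of the 10 cyclic GMP genes (vertical axes, each from 0) in the 4 control (blue) and 4 cKO (orange) libraries, with group mean ± SD in black. Prkg2, Gucy1a3 and Gucy1b3 sit lower in every cKO library, Prkg1, Npr1, Npr3 and Pde5a sit higher, and Nppc, Npr2 and Pde2a overlap.

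Levels of different genes were compared per kilobase of annotated exon (CPM per kb). In control ganglia Pde2a led with 53.2 ± 8.7 CPM per kb (SD, n = 4), followed by Gucy1b3 at 36.2 ± 5.3, Gucy1a3 at 25.9 ± 1.6 and Npr2 at 16.4 ± 2.1. Next was Prkg2 at 8.32 ± 0.66 CPM per kb, above Npr3 at 4.01 ± 0.48 and Nppc at 2.33 ± 0.63. The lowest levels were those of Pde5a at 1.27 ± 0.13, Npr1 at 1.21 ± 0.31 and Prkg1 at 0.90 ± 0.21 CPM per kb. Neighbours in this order did not overlap across the control libraries, except Pde5a with Npr1 and Npr1 with Prkg1. In cKO ganglia Prkg2 took place 7, at 2.90 ± 0.24 CPM per kb, after Npr3 and Nppc, and by their means the other genes kept their order among themselves. Single cKO libraries departed from it. In cKO 1 Npr2, at 20.2 CPM per kb, lay above Gucy1a3 at 19.5, and Npr1, at 1.94, above Pde5a at 1.88. In cKO 4 Npr2, at 17.1, lay just above Gucy1a3 at 17.0. In the same library Prkg1, at 2.12, lay above Npr1 at 1.79, and Npr1 above Pde5a at 1.54. The exon lengths come from 1 annotation that may not be the authors', so the order rests on that choice.

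**Figure D2:**
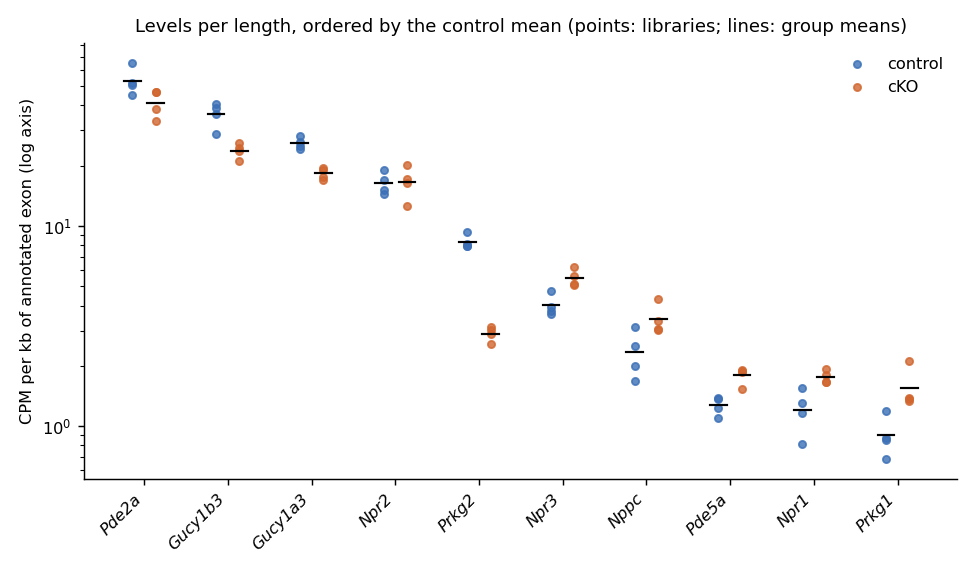
CPM per kb of annotated exon on a log axis for each gene, ordered by the control mean, with 1 point per library and a line at each group mean. Levels in control ganglia run from 53.2 for Pde2a to 0.90 for Prkg1, and Prkg2 goes from 8.32 in control to 2.90 in cKO ganglia.

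Nppc encodes the precursor of C-type natriuretic peptide, the ligand of the receptor Npr2. It was scarce, at 28 to 57 counts in control and 55 to 75 counts in cKO libraries. In control libraries 1 to 4 it had 2.08, 1.76, 3.26 and 2.61 CPM, and in cKO libraries 1 to 4 it had 3.14, 4.48, 3.18 and 3.51 CPM. Control 3 lay above 2 of the cKO libraries, so the groups overlapped. The log2 fold change was 0.55 (SE 0.23) and did not pass (edgeR adjusted p = 0.247).

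In a wider list of pathway genes, 2 genes on the ligand side passed. Nppb, the precursor of B-type natriuretic peptide, rose from 2.56 ± 0.33 to 4.42 ± 0.50 CPM (SD, n = 4 each), by 0.79 on the log2 scale (SE 0.17, edgeR adjusted p = 0.0403). Its control libraries had 2.76, 2.26, 2.29 and 2.92 CPM and its cKO libraries 4.86, 4.72, 3.75 and 4.37 CPM, all above the controls. Corin, the protease that activates atrial natriuretic peptide, rose from 0.471 ± 0.106 to 1.13 ± 0.17 CPM by 1.26 on the log2 scale (SE 0.26, edgeR adjusted p = 0.0333). It rested on 31 counts over the control and 80 counts over the cKO libraries. Nppa, the atrial peptide precursor, was as low, at 1.196 CPM in control libraries on average and 1.00 CPM in those of the knockout, and did not pass (edgeR adjusted p = 0.724). The call of Nppb was lost with any 1 library left out (edgeR adjusted p from 0.0501 to 0.143), and that of Corin with any 1 left out except control 1 (edgeR adjusted p from 0.0557 to 0.124, against 0.0437 without control 1).

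Npr2, the guanylyl cyclase receptor for C-type natriuretic peptide, was the most abundant of the receptor genes. Control libraries 1 to 4 had 89.3, 67.3, 70.8 and 78.7 CPM, and cKO libraries 1 to 4 had 94.5, 58.6, 76.7 and 79.8 CPM. The highest and the lowest values were both in the cKO group. The log2 fold change was 0.02 (SE 0.15, edgeR adjusted p = 0.98), which turned negative without control 2, control 3 or cKO 1 (-0.04, -0.02 and -0.11).

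Npr1, the cyclase receptor for the atrial and B-type peptides, was far lower. It had 6.25, 3.89, 7.44 and 5.53 CPM in control libraries 1 to 4, and 9.26, 7.94, 7.95 and 8.58 CPM in cKO libraries 1 to 4. Each cKO library lay above each control library, by a narrow margin over control 3. Its log2 fold change was 0.54 (SE 0.19) and did not pass (edgeR adjusted p = 0.174).

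Npr3 encodes the receptor that binds and clears natriuretic peptides and has no cyclase domain. Its control libraries 1 to 4 had 44.3, 36.8, 35.4 and 34.2 CPM, and its cKO libraries 1 to 4 had 52.5, 58.6, 48.3 and 47.4 CPM. Control 1 was the highest control and still lay below the lowest cKO library. On the log2 scale it stood at 0.46 (SE 0.12) and did not pass (edgeR adjusted p = 0.0685). It passed without control 1 (edgeR adjusted p = 0.034), and over its alternatives the adjusted p lay between 0.0126 and 0.261. The ratio of Npr2 to Npr3, per kb, lay between 3.68 and 4.63 in control libraries and between 2.01 and 3.62 in cKO libraries, so that the groups did not overlap. Genes on the opposite strand overlap exons of Npr1, Npr2, Npr3 and Pde5a in the annotation, for Pde5a over 55 exon bases. As nothing in the sources used here says whether counting used strand, reads of those genes may be included.

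Gucy1a3 and Gucy1b3, now named Gucy1a1 and Gucy1b1, encode the alpha-1 and beta-1 subunits whose dimer is the nitric oxide receptor. Gucy1a3 (chromosome 3, 82092427 to 82145789, minus strand, GRCm38) and Gucy1b3 (chromosome 3, 82032006 to 82074689, minus strand) lie in the same orientation with 17737 bases and 0 other coding genes between them. Since the pair fell together, stretches of sequence before their annotated starts are shown, from RefSeq on GRCm38.p6, on the minus strand and 5′ to 3′. The first lies at chr3:82145790-82145900 and the second at chr3:82074712-82074961. Capitals mark the CCAAT box and the GC box GGGCGG, each searched on both strands. In the second stretch the CCAAT box lies on the opposite strand and so appears as ATTGG.
Gucy1a3: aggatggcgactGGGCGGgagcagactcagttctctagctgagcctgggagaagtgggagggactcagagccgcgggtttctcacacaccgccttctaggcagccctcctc
Gucy1b3: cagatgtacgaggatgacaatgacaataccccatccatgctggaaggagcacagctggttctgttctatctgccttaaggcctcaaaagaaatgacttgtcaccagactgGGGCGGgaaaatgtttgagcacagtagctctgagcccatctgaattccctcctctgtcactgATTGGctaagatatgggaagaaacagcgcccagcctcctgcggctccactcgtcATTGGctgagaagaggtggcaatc

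In the 250 bases before the RefSeq start, Gucy1b3 held 2 CCAAT and 1 GGGCGG, while the window of Gucy1a3 that holds the printed stretch had 0 CCAAT and 1 GGGCGG. Among 32851 such windows of all genes, 33.9% held CCAAT and 32.7% held GGGCGG, so either motif is common. Windows were matched for 9 of the 10 genes, all but Prkg2. These matches are letters in a window and were not tested for any role.

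Gucy1a3 had 176, 183, 195 and 168 CPM in control libraries 1 to 4, and 136, 122, 133 and 118 CPM in cKO libraries 1 to 4. The groups did not overlap, and the highest cKO library, cKO 1, lay well below the lowest control. The log2 fold change was -0.50 (SE 0.09, edgeR adjusted p = 0.0226). Gucy1b3 had 113, 153, 160.1 and 143 CPM in control libraries 1 to 4, and 82.4, 102, 92.7 and 96.4 CPM in cKO libraries 1 to 4. Control 1 was the lowest control and cKO 1 the lowest cKO library. The log2 fold change of Gucy1b3 was -0.61 (SE 0.12, edgeR adjusted p = 0.0314).

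Each of these 2 calls was lost with most single libraries left out. That of Gucy1a3 was lost without control 2, control 3, control 4, cKO 2, cKO 3 or cKO 4 (edgeR adjusted p from 0.0508 to 0.0865), and kept without control 1 or cKO 1. That of Gucy1b3 was lost without any 1 library except control 1 (edgeR adjusted p from 0.0551 to 0.119, against 0.0104 without control 1). The log2 fold changes then lay between -0.55 and -0.47 for Gucy1a3 and between -0.71 and -0.55 for Gucy1b3. The ratio of Gucy1a3 to Gucy1b3 per kb lay between 0.665 and 0.874 in control and between 0.676 and 0.930 in cKO libraries, so the ratio of the subunits overlapped between the groups. It was highest in library 1 of each group.

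The other subunits of the soluble cyclase did not pass. Gucy1a2, an alternative alpha subunit named here after its values were seen, had 59.8 ± 11.3 CPM against 48.2 ± 7.2 CPM in the knockout (SD, n = 4 each; log2 fold change -0.31, SE 0.16, edgeR adjusted p = 0.363). Gucy1b2, a further beta subunit gene, stood at -0.93 on the log2 scale (SE 0.34, edgeR adjusted p = 0.194) and had 2.05 CPM in control ganglia, with 3.45 CPM in control 2 alone. Nos3, the endothelial nitric oxide synthase that supplies the gas, went the other way, with 3.43 to 3.89 CPM in control and 4.43 to 6.58 CPM in cKO libraries. Its log2 fold change of 0.55 (SE 0.17) did not pass (edgeR adjusted p = 0.122).

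Prkg2 (chromosome 5, 98929773 to 99037351, minus strand, GRCm38) encodes cyclic GMP-dependent kinase II, a membrane-anchored kinase best known from bone growth and intestinal secretion. It had 42.6, 49.96, 43.6 and 42.6 CPM in control libraries 1 to 4, and 13.8, 16.8, 15.4 and 16.18 CPM in cKO libraries 1 to 4. The spread within each group was small beside the gap between them, and the means were 44.7 ± 3.5 CPM and 15.6 ± 1.3 CPM (SD, n = 4 each), a log2 fold change of -1.52 (SE 0.11). These values chose the set. No other tested gene of the annotation overlaps its exons.

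Prkg1, which encodes kinase I, the form of vascular smooth muscle and sensory neurons, was much scarcer in control ganglia and lay the other way. It had 9.44, 9.28, 7.44 and 12.9 CPM in control libraries 1 to 4, and 14.97, 14.7, 14.5 and 23.0 CPM in cKO libraries 1 to 4. In each group library 4 was the highest, and cKO 4 stood apart from the other cKO libraries. On the log2 scale the change was 0.78 (SE 0.21) and did not pass (edgeR adjusted p = 0.0721), while in DESeq2 it did (adjusted p = 0.00985), and over all alternatives the adjusted p reached 0.213. Summed sensory neuron markers were also highest in library 4 of each group, with 164 CPM (control 4) and 279 CPM (cKO 4). Among them the sodium channel gene Scn10a had 38.0 CPM in cKO 4 against 2.09 to 2.80 CPM in the other cKO libraries. P2rx3 had 90.2 CPM there against 17.6 to 34.7 CPM, and Trpv1, Isl2, Pou4f1 and Ntrk2 were also highest in cKO 4. Isl2 and Pou4f1 were low, with 151 and 58 counts over the cKO libraries. Not all of the list did so: Prrxl1, Calca and Mrgprd were highest in other cKO libraries, and Prrxl1 was lowest in cKO 4, at 0.917 CPM. Prrxl1, Calca and Mrgprd rested on few counts, 109, 51 and 11 over the cKO libraries. Ntrk2 alone had 92.1 to 131 CPM in cKO libraries. The part of sensory neurons in Prkg1 was not tested. Per kb, Prkg2 was between 6.68 and 11.9 times as abundant as Prkg1 in control libraries and between 1.42 and 2.30 times in cKO libraries. By this measure kinase II remained the more abundant of the kinase transcripts in every library, by a smaller ratio in cKO ganglia. In CPM, without exon length, Prkg1 lay above Prkg2 in cKO 1 (14.97 against 13.8) and in cKO 4 (23.0 against 16.18). The order in cKO ganglia thus rests on the exon lengths used, and the comparison includes the gene that chose the set.

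**Figure D3:**
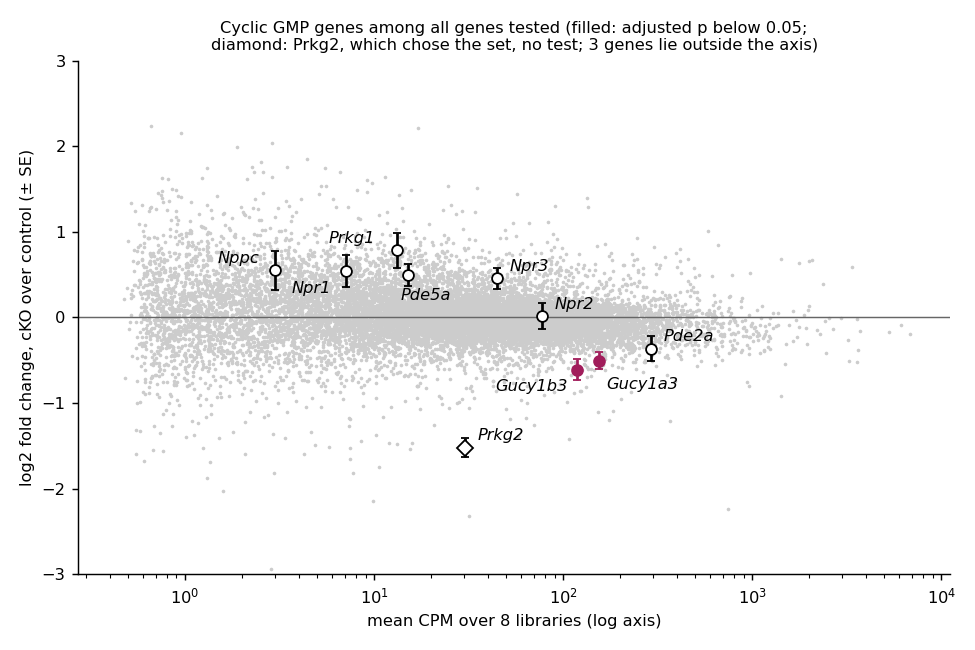
Log2 fold change of cKO over control (vertical axis, ± SE for the named genes) against mean CPM on a log axis, for all genes tested (grey) and the 10 cyclic GMP genes (circles, filled where the adjusted p was below 0.05, and an open diamond for Prkg2, which chose the set and has no test). Gucy1b3 at -0.61 and Gucy1a3 at -0.50 are filled, Prkg2 lies at -1.52, and 3 grey genes lie beyond the vertical axis.

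The genes whose pattern over the 8 libraries was most like that of Prkg2 were ranked by the root-mean-square difference of log2 CPM, each gene centred on its own mean, among 11731 other genes at 5 CPM or more. Fam196b came first, with a difference of 0.074, falling from 11.1 to 3.83 CPM on average. Cdh8, a cadherin, followed at 0.124, with means of 83.6 and 31.9 CPM. Nlrc5, a regulator of class I histocompatibility genes, the potassium channel gene Kcnj3 and the secreted protein gene Scube1 came next, at 0.214, 0.221 and 0.230. All 5 had log2 fold changes between -1.53 and -1.37, a size that this ranking selects. For Nppc the nearest profiles were those of Htra3, Chst14, Thbd, Loxl1 and Fam65b, with differences from 0.112 to 0.144 and log2 fold changes from 0.45 to 0.63. Thbd, at rank 3, encodes thrombomodulin, a receptor of endothelial cells. Nppc had only 28 to 75 counts per library, so its ranking is uncertain, and the cell source of Nppc was not tested.

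Pde2a, a phosphodiesterase that cyclic GMP itself stimulates and that breaks down both cyclic nucleotides, was the most abundant of the 10 genes per length. Control libraries 1 to 4 had 403, 312, 277 and 317 CPM, and cKO libraries 1 to 4 had 288, 206, 286 and 237 CPM. Control 3 lay below cKO 1 and cKO 3, so the groups overlapped. Pde2a stood at -0.36 on the log2 scale (SE 0.15) and did not pass (edgeR adjusted p = 0.235). The annotation also has Gm45837, on the same strand, which shares 3955 exon bases with Pde2a, so how reads were divided between them is uncertain.

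Pde5a, the cyclic GMP-specific phosphodiesterase of smooth muscle, was scarce in control ganglia. It had 10.8, 13.4, 13.5 and 12.1 CPM in control libraries 1 to 4, and 18.5, 18.7, 18.3 and 15.1 CPM in cKO libraries 1 to 4. The lowest cKO library, cKO 4, lay above the highest control. The log2 fold change of 0.50 (SE 0.13) did not pass (edgeR adjusted p = 0.0644, from 0.0146 to 0.209 over the alternatives). Per kb, the ratio of Pde2a to Pde5a lay between 32.7 and 59.4 in control and between 17.6 and 25.1 in cKO libraries, without overlap. In bulk tissue, fewer cells of a type and less RNA per cell cannot be told apart.

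The wider list held 45 further genes of the pathway, of which 30 passed the filter on low counts. Most photoreceptor genes of the list were among the 15 that did not. Of the 30, 2 rose (Nppb and Corin), 1 fell (Abcc4) and 27 did not pass, against 1.6% higher and 1.12% lower over all genes tested. The 30 had 15 positive and 15 negative log2 fold changes and a median of -0.01. Abcc4, which exports cyclic nucleotides from cells, had 47.3, 55.7, 44.4 and 49.97 CPM in control libraries 1 to 4 and 37.3, 33.8, 38.0 and 34.4 CPM in cKO libraries 1 to 4. The groups did not overlap, and the log2 fold change was -0.46 (SE 0.10, edgeR adjusted p = 0.0446), a call lost with any 1 library left out (edgeR adjusted p from 0.0524 to 0.159). Abcc5, a second exporter and the most abundant gene of the list by CPM, had 222 ± 32 CPM against 184 ± 39 CPM in the knockout (SD, n = 4 each) and did not pass. Pde9a, a high-affinity cyclic GMP phosphodiesterase, stood at -0.26 on the log2 scale (SE 0.09, edgeR adjusted p = 0.179), with 73.4 to 84.8 CPM in control and 61.3 to 71.5 CPM in cKO libraries.

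**Figure D4:**
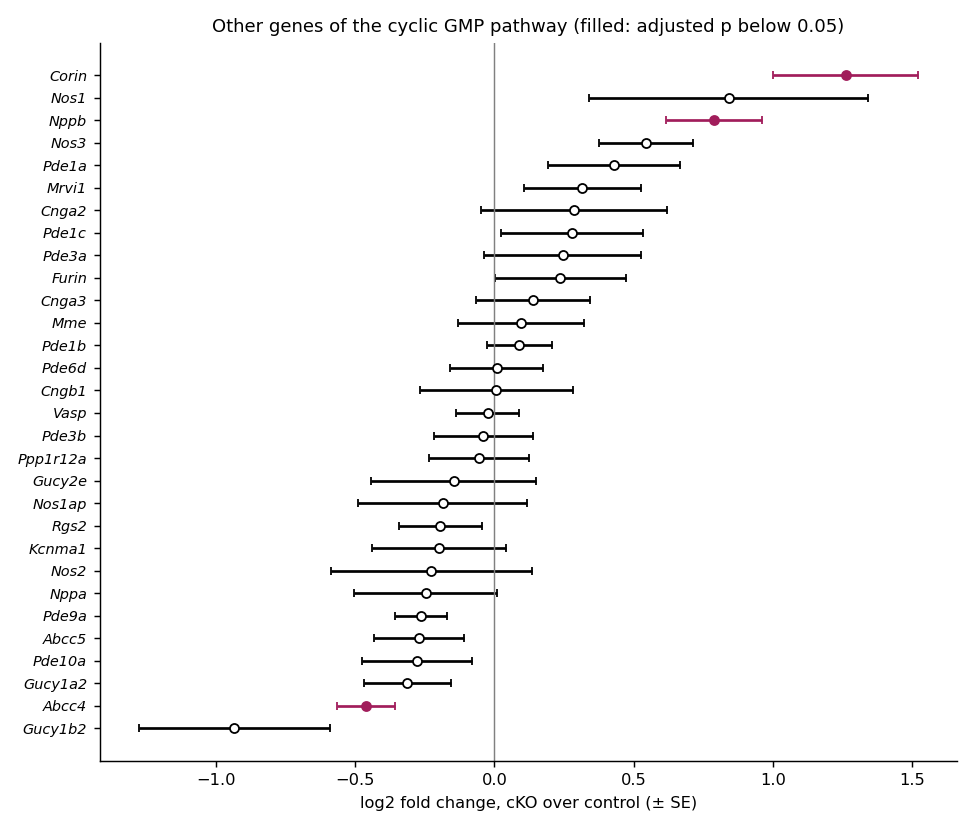
Log2 fold change of cKO over control (horizontal axis, ± SE) for the 30 tested genes of the wider pathway list, in order of size. The filled points, Corin at 1.26, Nppb at 0.79 and Abcc4 at -0.46, had an adjusted p below 0.05.

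Genes of the parallel cyclic AMP pathway served for comparison. Of 19 kinase, kinase inhibitor, phosphodiesterase and exchange factor genes, 1 fell, 0 rose and 18 did not pass, against 1.12% lower and 1.6% higher over all genes tested. Their median log2 fold change was -0.11 (at an unadjusted p below 0.05, 2 were higher and 5 lower, and DESeq2 passed 0 higher and 3 lower, beside shares over all genes of 9.42%, 7.42%, 3.42% and 2.76% in that order). The gene that fell was Prkar2b, the type II beta regulatory subunit of the cyclic AMP kinase. It had 178, 211, 187 and 193 CPM in control libraries 1 to 4 and 124, 126, 131 and 145 CPM in cKO libraries 1 to 4, or -0.55 on the log2 scale (SE 0.10, edgeR adjusted p = 0.0181), lost without control 2, control 4, cKO 2 or cKO 3. The catalytic subunit gene Prkacb and the regulatory subunit gene Prkar1a had fold changes of -0.21 and -0.11 in log2 units, each with SE 0.09, and the phosphodiesterase gene Pde4b had -0.40 (SE 0.10, edgeR adjusted p = 0.0716). Of 9 tested adenylyl cyclase genes Adcy4 rose, from 3.94 ± 0.59 to 6.81 ± 0.95 CPM (SD, n = 4 each; log2 fold change 0.79, SE 0.17, edgeR adjusted p = 0.039), a call lost without any 1 library except cKO 1. The other 8 did not pass, and over all genes tested 1.6% passed as higher.

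Markers of other cells moved with these groups. The summed pericyte and vascular smooth muscle markers lay between 217 and 229.7 CPM in control and between 323 and 443 CPM in cKO libraries. All 11 tested had positive log2 fold changes, 2 of them passing (Pdgfrb and Notch3), with a median of 0.76. Endothelial markers summed to between 192 and 259 CPM in control and between 316 and 337 CPM in cKO libraries, and 3 of 12 rose (Pecam1, Tek and Eng; median 0.52). Fibroblast markers rose in 7 of 10 (median 0.64; 5294 to 6803 CPM in control, 7359 to 10766 CPM in cKO libraries), and glial markers in 2 of 12 (median 0.55; 2113 to 2713 CPM and 3190 to 3708 CPM). The DESeq2 Wald test passed more of them as higher: 6 pericyte and smooth muscle, 7 endothelial, 9 fibroblast and 7 glial markers. Over all genes, 1.6% passed as higher in edgeR and 3.42% in DESeq2. The log2 fold changes of Prkg1, Npr1, Npr3 and Pde5a, from 0.46 to 0.78, lay in the range of these medians or near it, and the part of the marked cells in them was not tested.

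The 18 noradrenergic neuron markers summed to between 25463 and 26865 CPM in control and between 22047 and 23956 CPM in cKO libraries. None of the 18 passed in edgeR (median log2 fold change -0.14). At an unadjusted p below 0.05 in edgeR, 1 was higher and 4 were lower, against 9.42% and 7.42% of all genes. DESeq2 passed 1 higher and 1 lower, against 3.42% and 2.76% of all genes. Among the 18 the noradrenaline transporter gene Slc6a2 was at 70.4% of control with no overlap (log2 fold change -0.51, SE 0.12, edgeR adjusted p = 0.0545), close to Gucy1a3 at 70.6%. The part of neuron number in the lower values of Gucy1a3, Gucy1b3 and Prkg2 was not tested. The 10 macrophage markers had a median of 0.25 with overlapping sums (149 to 241 CPM in control, 188 to 304 CPM in cKO libraries). In edgeR none passed, and 1 was higher at an unadjusted p below 0.05 (9.42% over all genes). DESeq2 passed 0 (3.42% higher and 2.76% lower over all genes). In no marker list was a gene at 0 in all libraries.

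**Figure D5:**
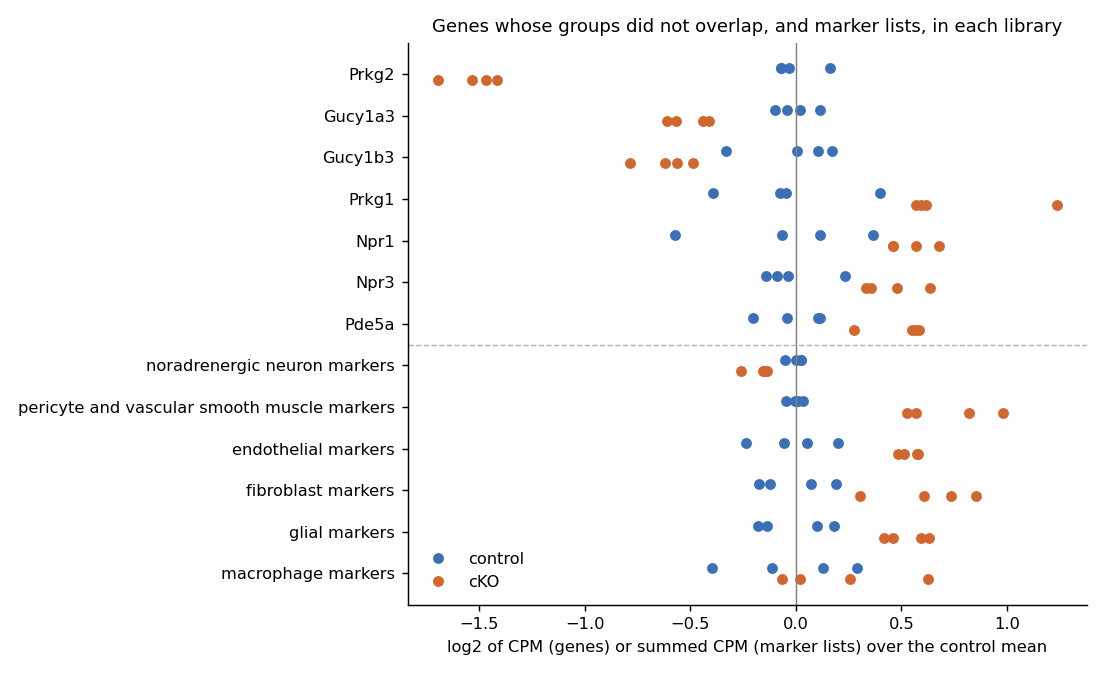
Log2 of each library's CPM over the control mean (horizontal axis) for the 7 cyclic GMP genes without overlap, above the dashed line, and for summed marker lists, below it, in control (blue) and cKO (orange) libraries. The orange points of Prkg1, Npr1, Npr3 and Pde5a lie to the right of the control points, as do those of the vessel, fibroblast and glial markers, while those of Prkg2, Gucy1a3 and Gucy1b3 lie further left than those of the noradrenergic markers.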

How the data were processed

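RNA of ganglion pairs was made into polyadenylated RNA libraries with a TruSeq v2 kit, per the labels' protocols. The authors deposited whole-number counts of reads for each symbol, and the submitters' processing notes name STAR and mm10. Which program counted the reads, with what annotation, and whether by strand, was not given in the sources used here. No row lacked a name. Every row kept by filterByExpr entered edgeR 4.0.16 (R 4.3.3) with TMM scaling and a robust quasi-likelihood test of group, with no covariate, at a Benjamini-Hochberg adjusted p below 0.05. SE is the absolute log2 fold change over the square root of F, and a prior count of 2 entered log2 CPM. Replicates are separate animals, and pairs within a group differed by 6.65 to 46.5 chi-square units per gene, well over sampling noise. Positions and exon lengths were read from the GENCODE vM21 annotation (GRCm38, equal to mm10), with older symbols matched through RefSeq. Promoter windows end at the RefSeq start, and those parts printed lie before each annotated start.

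The members and lists were chosen with earlier results of these data known. Named were the 10 genes, Kif1b, the members of the cyclic GMP and cyclic AMP lists that passed, and the 5 nearest profiles of Prkg2 and Nppc. Other list members and markers were named by level, p, role or pattern over the libraries, some after their values were seen. Alternatives were DESeq2 1.42.0 size factors in edgeR, library size alone, 2 other filters, the DESeq2 Wald test, a block for the label number and the omission of single libraries. Scripts were tested on simulated data beforehand. There 19.4% of genes changed 1.5-fold and 59.7% of those changed 2-fold passed in edgeR, so a gene that did not pass may still differ. Figures used matplotlib 3.10.9.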

Additional observations from a re-analysis of the deposited data

Results flagged for a closer look

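A library far from the others of its group was found in 3 of 30 groups of 4 examined (15 genes in 2 groups each), by the gap to the nearest library over the group's range above Dixon's critical value. Chance flags about 1 in 20 such groups. Prkg1 had 22.98 CPM in cKO 4 against 14.5 to 14.97 CPM in the other cKO libraries, and without cKO 4 its log2 fold change was 0.59. In cKO 4 the smooth muscle genes Myh11, Acta2, Tagln and Cnn1 were also highest. Myh11 had 28.2 CPM there against 7.26 to 14.3 CPM in the other cKO libraries. Acta2 had 62.6 CPM against 20.7 to 46.3 CPM, and Tagln 47.5 CPM against 21.3 to 36.7 CPM. Cnn1 was low, at 1.73 CPM against 0.114 to 1.49 CPM. The other genes of their list, such as Pdgfrb, Notch3 and Rgs5, peaked in other cKO libraries. The summed pericyte and smooth muscle list was highest in cKO 2, at 443 CPM against 396 CPM in cKO 4. Summed sensory neuron markers were highest in cKO 4, at 279 CPM against 123 to 155 CPM. The part of either cell type was not tested. Pde5a had 15.1 CPM in cKO 4 against 18.3 to 18.7 CPM in the others, and so lay at the other end of its group. Prkg2 had 49.96 CPM in control 2 against 42.6 to 43.6 CPM in the other controls, and without control 2 its log2 fold change was -1.47.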

How the results depend on the processing

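Among all genes tested, 397 passed. DESeq2 size factors gave 400 (390 of them among the 397), no filter on low counts 374 (354 shared), a filter of 1 CPM in 4 libraries 414 (387 shared) and library size alone 488 (378 shared). With library size alone 343 were higher and 145 lower, against 234 and 163. The DESeq2 Wald test passed 977, with all 397 among them. Leaving out 1 library at a time gave 74 to 514 (for control 2, 3 and 4 out, 79, 249 and 74, and for cKO 2 and 3 out, 147 and 137), and the cause was not tested. Among the 10 cyclic GMP genes, 1 to 3 were then lower and 0 to 1 higher. That count includes Prkg2, which chose the set, and without it 0 to 2 of the other 9 were lower. Higher genes numbered 1 with library size alone (Npr3) and 3 with the DESeq2 Wald test (Prkg1, Npr3 and Pde5a). The calls of Nppb, Abcc4 and Adcy4 were lost without a filter on low counts, and that of Abcc4 with library size alone. The log2 fold change of Npr2 was -0.0406 without control 2, -0.0205 without control 3 and -0.107 without cKO 1, the lowest of a range that reached 0.129 without cKO 2.

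Labels number the libraries of both groups from 1 to 4. Deviations from the group means of same-numbered libraries correlated at 0.72, 0.35, -0.30 and 0.27, and not every library correlated best with its own number, so the numbers were not taken as pairs. With a replicate block 687 genes passed, 2 cyclic GMP genes were higher (Prkg1, edgeR adjusted p = 0.0125, and Npr3, edgeR adjusted p = 0.0385), and Corin no longer passed.

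After seeing the data, 2 more alternatives were chosen. Without both libraries numbered 1, which held the most muscle and cartilage markers, 437 genes passed, 1 cyclic GMP gene was higher (Npr3), and Npr2 had -0.0114. Without both numbered 4, 65 genes passed and 0 of the 9 cyclic GMP genes beside Prkg2 (1 with it), with the calls of Gucy1a3, Gucy1b3, Nppb, Corin, Abcc4, Prkar2b and Adcy4 lost. Of the genes that passed, Corin rested on few counts, 31 over all control libraries.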
